A study of Mus musculus with 9 samples.

Results

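Gene expression in defeated mice given (2S,6S)-HNK was set against that in mice that were never defeated, using 6 of the 9 RNA libraries of the series. The members are the 3 libraries labelled as stress with (2S,6S)-HNK and the 3 labelled as non-stress with saline, and the labels define them. All mice were of the BALB/c strain, with no transgene named and no age or sex stated. The treated animals went through 5 days of social defeat, in which a mouse is exposed to an aggressive one, so they differ from the non-stressed group in both stress and drug, and the effects of the 2 cannot be told apart here. (2S,6S)-HNK is a hydroxynorketamine, a product of ketamine metabolism shortened to SHNK in the plots, and its dose and time of injection are not stated in the labels. The remaining 3 libraries, from defeated mice given saline, enter the estimate of spread and are given beside the others as levels, as distances and, for Mmp14, in 2 further comparisons. The labels do not say whether a library is 1 animal or several, so all p-values measure the spread between these libraries alone.

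The tissue carries the label of the aPVT, the anterior part of the paraventricular nucleus in the thalamus. This small midline nucleus of glutamatergic neurons lies under the third ventricle, next to the habenula. It receives hypothalamic and brainstem input on arousal and stress and projects to the nucleus accumbens, amygdala and prefrontal cortex. Its neurons are marked by the vesicular glutamate transporter Slc17a6 and the calcium-binding protein Calb2, and they carry GABA-A receptors, chloride channels of 5 subunits, through which they are inhibited.

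Total counts ran from 32307869 to 45034669 in the non-stressed libraries and from 38709827 to 51569143 in the treated ones. The deposited table lists 18956 gene symbols, all with 1 read or more in every library, and 18194 passed a filter on low counts. Of the 24 markers listed for the aPVT, 23 were tested. Their summed level was 4051 to 4359 CPM (counts per 1e6 reads, after scaling for composition) in the non-stressed libraries and 4023 to 4287 CPM in the treated ones. Slc17a6 and Calb2 are also on a list of markers for other thalamus. That list summed to 8157 to 8398 CPM in non-stressed and 7878 to 8469 CPM in treated libraries. No other region was sampled, so these levels cannot tell the aPVT from nearby thalamus. Levels depended on the GC content of the transcript, most of all in the third library of each group. The genes of known GC content among the 13666 whose mean log2 CPM was 1 or more were split into 10 classes, and the median log2 difference, treated minus non-stressed, went from 0.16 in the class of lowest GC to -0.27 in the class of highest GC. In the class of highest GC the median deviation from the mean of the 9 libraries was 0.037, 0.027 and 0.25 in the non-stressed libraries and -0.081, -0.11 and -0.27 in the treated ones. Values from a fit in which the trends on GC content and length had been removed from each library, chosen after the data were seen, are given beside many of the results.

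**Figure D1:**
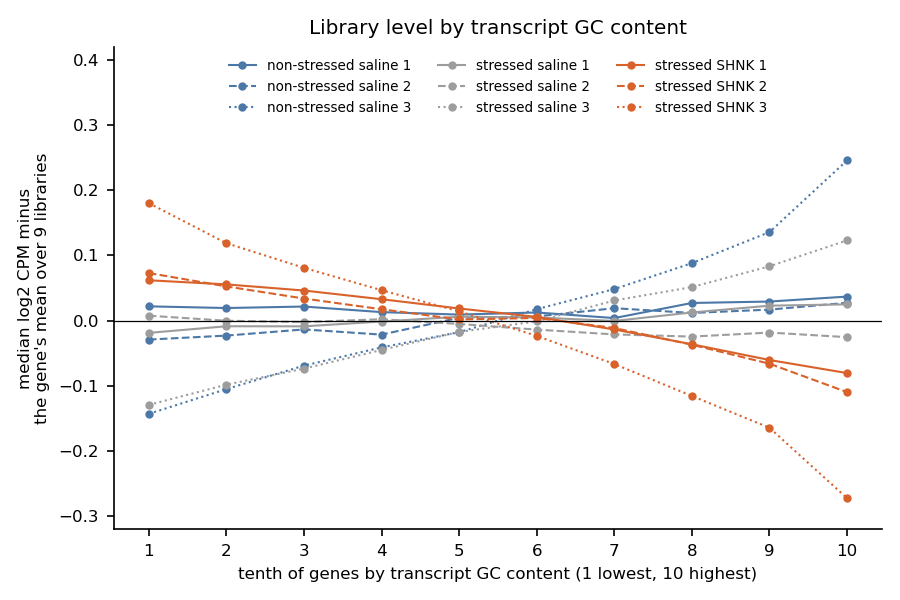
Median log2 CPM of the genes in 10 classes of transcript GC content (x axis, lowest to highest), relative to each gene's mean over the 9 libraries (y axis), with 1 line per library. In the class of highest GC the third non-stressed library lies at 0.25 and the third treated library at -0.27.

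At an adjusted p of 0.05 in edgeR, a single gene separated treated from non-stressed tissue. Mmp14, which encodes a matrix metalloproteinase anchored in the cell membrane that cuts collagen and activates other proteinases, fell, and 0 genes rose, so that 0.00550% of the tested genes were called. Mmp14 (GRCm38.p6 chr14:54431598-54442456) stood at 55.2, 46.4 and 52.9 CPM in the non-stressed libraries and at 31.5, 31.5 and 28.6 CPM in the treated ones. The groups did not overlap, and the lowest non-stressed library lay well above the highest treated one. The log2 fold change was -0.75 ± 0.0997 (standard error; 95% interval -0.97 to -0.54; edgeR adjusted p = 0.0477), which left the treated mean at 59.3% of the non-stressed mean. Stressed saline libraries had 60.0, 54.6 and 49.6 CPM. The first lay above the highest non-stressed library, and the others lay within the non-stressed range. In the same model Mmp14 differed by 0.09 between stressed saline and non-stressed tissue (edgeR adjusted p = 0.919) and by -0.84 between treated and stressed saline tissue (edgeR adjusted p = 0.000570), comparisons that each share libraries with the one described here. With the GC and length trends removed, the Mmp14 difference was -0.55 and missed the threshold (edgeR adjusted p = 0.116). It also missed it when any of non-stressed library 1 or 3 or treated library 1, 2 or 3 was left out, with edgeR adjusted p = 0.101, 0.167, 0.0711, 0.0975 and 0.384. It passed without non-stressed library 2 or any stressed saline library.

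The next smallest adjusted p was 0.0686, shared by 52 genes, and 520 genes lay under 0.1, of which 135 were higher and 385 lower in treated tissue. At an unadjusted p under 0.05 there were 1330 higher genes (7.31% of those tested) and 2008 lower ones (11.0%), together 18.3%. DESeq2 called 340 higher (2.68% of 12706 genes) and 664 lower (5.23%), together 7.90%, while limma voom called only Mmp14. In 21.3% of genes the 3 treated values all lay to 1 side of the 3 non-stressed values. The edgeR count turned on single libraries. Without non-stressed library 2 it was 749 genes, without stressed saline library 1 or 2 it was 8 each, without treated library 2 it was 3 and without non-stressed library 1 it was 2. It was 0 without non-stressed library 3 or treated library 1 or 3. The count at an unadjusted p under 0.05 was 1779 without treated library 3 and 2162 without non-stressed library 3.

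**Figure D2:**
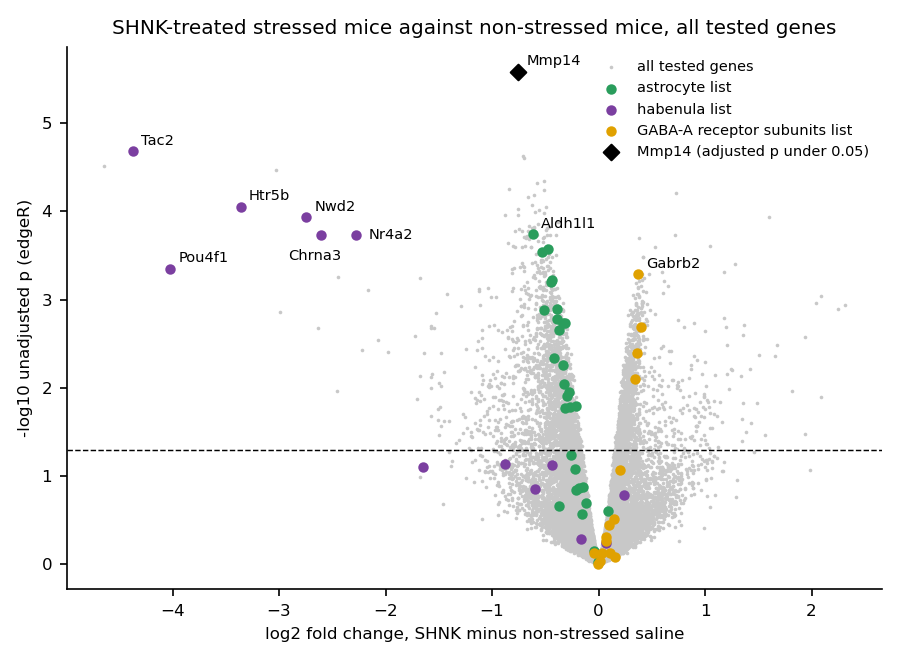
Log2 fold change, treated minus non-stressed (x axis), against the unadjusted edgeR p on a -log10 scale (y axis) for all tested genes, with 3 gene lists in colour and a dashed line at p of 0.05. Mmp14 is the single gene past an adjusted p of 0.05, habenula genes spread far to the left at log2 fold changes down to -4.37, and most astrocyte genes lie between -0.62 and 0.

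How large a difference the data leave room for was read from the intervals of the fit. In 14938 genes (82.1%) the 95% interval of the fold change lay within 2-fold in either direction, and in 10346 (56.9%) within 1.5-fold. The median standard error was 0.146 on the log2 scale, and 207 genes had a log2 fold change beyond 1 in either direction. For only 15 genes did the interval lie wholly outside 2-fold, 12 of them lower and 3 higher in treated tissue. By name these are, chosen after their values were seen, the lower Tac2, Htr5b, Chrna3, Nr4a2, Nwd2, Pou4f1, Nppa, Scube1, Rtn4rl2, Vsig8 and gene models Gm5741 and A330093E20Rik, and the higher Mrc1, Nup62cl and LOC115489467. The first 6 of the lower genes are on the habenula list described further on. The intervals were not adjusted for the number of genes tested, and none of the 15 genes was called at an adjusted p of 0.05. Non-stressed levels were near the floor for A330093E20Rik (0.125 to 0.319 CPM), Nup62cl (0.123 to 0.132 CPM) and Mrc1 (0.172 to 0.219 CPM). In simulated counts of the same size, 36.5% of genes changed by 1.5-fold and 71.2% of those changed by 2-fold were recovered. In the data, 0 genes beyond 2-fold were called by edgeR at an adjusted p of 0.05, although 207 had such a difference. The simulated shares therefore do not give the share of true changes of that size that was called here.

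Distances over the whole transcriptome overlapped within and between the groups. The root mean square difference in log2 CPM was 0.442 to 0.466 for pairs of non-stressed libraries, 0.384 to 0.414 for pairs of treated libraries and 0.407 to 0.540 for the 9 pairs that join the groups. The between-group mean exceeded the within-group mean by 0.0371 (exact permutation test over 6 libraries, one-sided p = 0.1, the smallest that the 10 splits allow). Beside these, pairs that join stressed saline to non-stressed libraries had a mean distance of 0.492, and pairs that join it to treated libraries 0.525, against 0.461 for treated with non-stressed. Those 3 means share libraries, and no difference between them was tested.

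A set of 23 genes on aPVT identity, GABA, activity, stress hormones, chromatin and mTOR was read in full, and 0 of them were called. Adjusted p from edgeR ran from 0.0921 to 0.999, 5 had an unadjusted p under 0.05, beside 18.3% of all tested genes, and DESeq2 called 4, beside 7.90%. For 21 of the 23 the interval lay within 2-fold, and for 13 within 1.5-fold. The glutamate transporter Slc17a6 had 710.5, 570.0 and 525 CPM in non-stressed and 629, 659.6 and 711 CPM in treated libraries, a log2 difference of 0.15 (95% interval -0.10 to 0.39). Calb2 had 2132, 1910.4 and 2058 CPM against 2056, 1693 and 1763 CPM, a difference of -0.15 (-0.39 to 0.10). For both genes the groups overlapped. The dopamine receptor Drd2, also on the list of aPVT markers, ranged from 4.60 to 7.65 CPM in non-stressed and from 3.92 to 5.51 CPM in treated libraries, with a difference of -0.42 (-0.85 to 0.01).

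Among peptides of the nucleus, galanin (Gal) stood at 20.1, 24.4 and 18.6 CPM in non-stressed and at 26.3, 26.9 and 27.1 CPM in treated libraries. All 3 treated values were the higher ones, with a log2 difference of 0.35 ± 0.110 (edgeR adjusted p = 0.126). Cholecystokinin (Cck) had 257, 357 and 321 CPM against 343, 445 and 465 CPM, a difference of 0.42 ± 0.139 with overlapping groups (edgeR adjusted p = 0.137). In stressed saline libraries Cck was at 209 to 277 CPM. Over the 23 tested aPVT markers the median log2 difference was 0.01, beside -0.0049 over all tested genes, with 2 higher and 1 lower at an unadjusted p under 0.05, where 7.31% of all genes were higher and 11.0% lower.

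**Figure D3:**
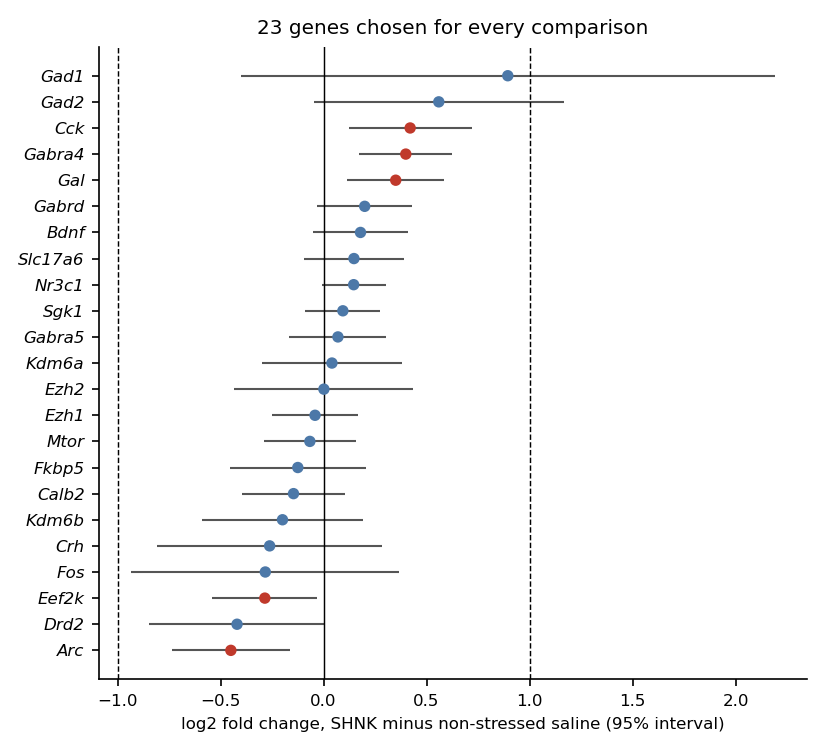
Log2 fold change, treated minus non-stressed (points), with its 95% interval (bars) for the 23 genes, in order of size, with dashed lines at 2-fold and red points for an unadjusted p under 0.05. Only the intervals of Gad1 and Gad2 reach beyond 2-fold.

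Genes of the habenula gave the widest differences of the 37 lists examined. Because the lists were chosen with earlier results of these data known, a list's share set beside that of all genes is a description and not a test. The habenula sends excitatory output to the interpeduncular nucleus and the monoamine centres, and its medial part holds cholinergic and tachykinin neurons. Of 16 listed genes 13 were tested, and Chrnb4, Chrnb3 and Slc18a3 were not in the table. By edgeR 0 were called, and 6 were lower at an unadjusted p under 0.05 and 0 higher, 46.2% lower against 11.0% of all tested genes. DESeq2 called 6 lower, beside 5.23% of all genes, and limma voom called 0. In an edgeR fit of the 6 libraries alone Tac2, Chrna3, Nr4a2 and Nwd2 were called lower. The median log2 difference was -1.65, which became -0.54 without non-stressed library 3 and -2.58 without treated library 1. The mean log2 CPM of the list was 2.32, 2.35 and 3.40 in non-stressed libraries and 1.38, 0.95 and 0.90 in treated ones, beside 4.14, 5.72 and 4.93 in stressed saline. The groups did not overlap, and the third non-stressed library stood above the other two. In bulk RNA, fewer cells of a type and less RNA per cell cannot be told apart, and how much neighbouring habenula each dissection took was not tested.

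Tac2, the precursor of the tachykinin neurokinin B, had 4.41, 7.83 and 20.8 CPM in non-stressed and 0.652, 0.656 and 0.217 CPM in treated libraries. Every treated value was under 1 CPM, and the third non-stressed value was well above the other two. The log2 difference was -4.37 ± 0.698 (edgeR adjusted p = 0.0686), and the DESeq2 adjusted p was 3.82e-05. Htr5b, a serotonin receptor, had 4.78, 3.63 and 15.1 CPM against 1.05, 0.259 and 1.06 CPM, a difference of -3.36 ± 0.618 (edgeR adjusted p = 0.0686). The nicotinic receptor subunit Chrna3 had 5.02, 5.76 and 15.4 CPM against 1.96, 1.31 and 0.978 CPM, a difference of -2.60 ± 0.518 (edgeR adjusted p = 0.0686). Nr4a2, an orphan nuclear receptor that is also on the list of activity-induced genes, had 7.43, 4.82 and 10.9 CPM against 2.21, 1.61 and 0.896 CPM. In each of these genes the third non-stressed library was the highest of the 6. The same genes had far higher levels in stressed saline libraries, with Tac2 at 38.6, 155 and 83.7 CPM and Chrna3 at 26.0, 92.1 and 43.9 CPM.

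Some other members are named here after their values were seen, and over the 13 tested genes 11 differences were below 0 and 2 above. Values of Chat, Slc5a7, Gng8 and Gpr139, which were also tested, are not given here. Pou4f1, a homeobox factor that defines habenular neurons, was at 0.702, 0.470 and 2.18 CPM in non-stressed libraries and close to 0 in treated ones, at 0.0841, 0.0398 and 0.0815 CPM. Nwd2 had 4.71, 5.83 and 15.6 CPM against 1.41, 1.29 and 1.17 CPM. The receptor Gpr151 was at 44.9, 36.6 and 44.7 CPM against 30.7, 28.6 and 34.1 CPM, a log2 difference of -0.44 (95% interval -0.92 to 0.05). The peptide precursor Tac1 (0.24, -0.11 to 0.60) and the transcription factor Etv1 (0.07, -0.20 to 0.34), the 2 above 0, had overlapping groups. With the GC and length trends removed, 6 members were again lower at an unadjusted p under 0.05, with a median of -1.52. In that fit 7.37% of all genes were higher and 6.58% lower at this level, and 0 of 16724 were called. Nppa, the natriuretic peptide precursor on the neuropeptide list, had 1.47, 0.940 and 2.13 CPM in non-stressed, 6.28, 19.2 and 14.5 CPM in stressed saline and 0.231, 0.179 and 0.136 CPM in treated libraries, the same order of groups as Tac2.

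**Figure D4:**
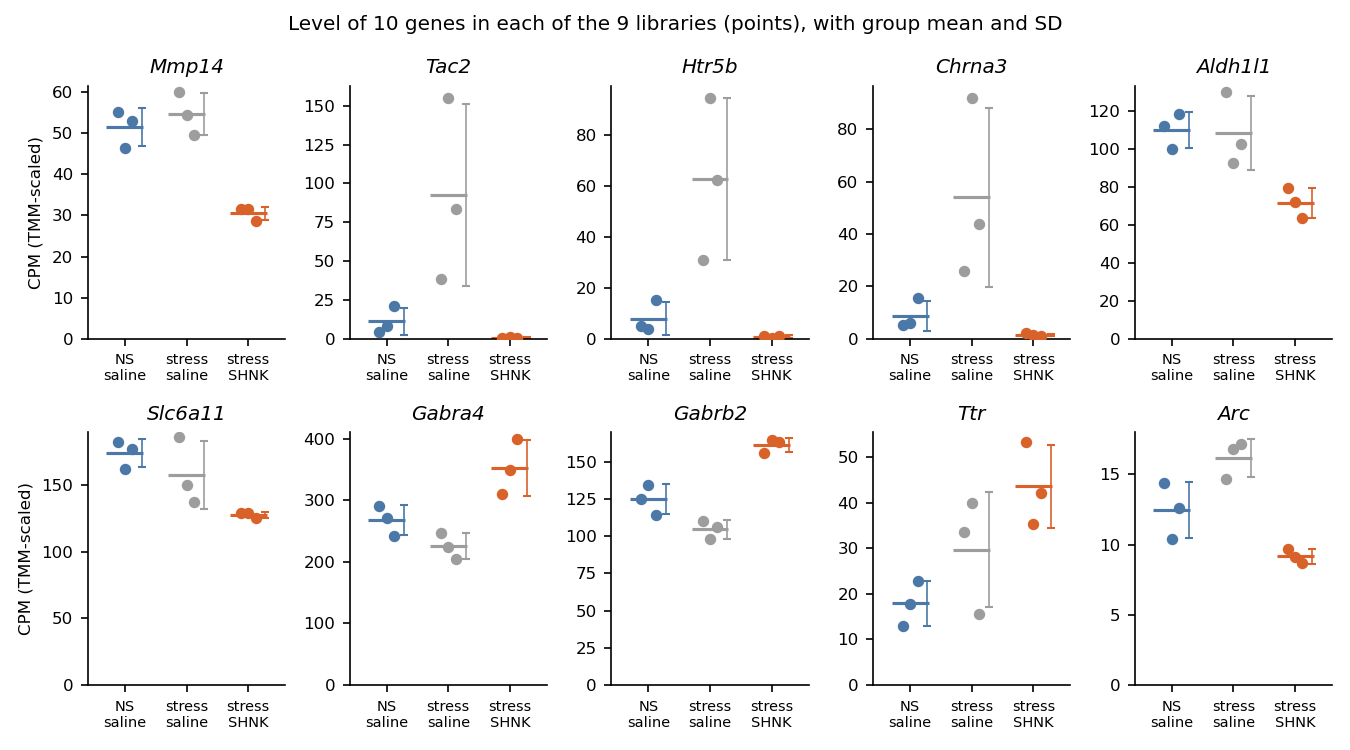
CPM (y axes, from 0) of 10 genes in each of the 9 libraries (points), with the mean (bar) and SD of each group. Mmp14 and Aldh1l1 are lower in treated libraries than in both saline groups, Tac2, Htr5b and Chrna3 are highest in stressed saline and lowest in treated libraries, and Gabra4 and Gabrb2 are highest in treated libraries.

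Astrocyte genes were lower in treated libraries across most of their list. Astrocytes clear glutamate and GABA, buffer potassium and supply lipids to neurons. All 30 listed genes were tested, 29 had a log2 difference below 0, and 19 were lower at an unadjusted p under 0.05, 63.3% against 11.0% of all tested genes. By edgeR 0 members were called, by limma voom 0 and by DESeq2 13, all lower, where DESeq2 called 5.23% of all genes lower. All 30 intervals lay within 2-fold, and the median was -0.32. Leaving out any 1 library gave 17 to 21 lower members, and the fit with GC and length trends removed gave 17 with a median of -0.24, beside 6.58% of all genes. The summed level of the list was 14738 to 16462 CPM in non-stressed, 14195 to 17440 CPM in stressed saline and 12218 to 12925 CPM in treated libraries. The treated range lay below both of the others.

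Aldh1l1, a folate enzyme used as a general astrocyte marker, had 112, 99.7 and 118 CPM in non-stressed and 79.5, 71.7 and 63.7 CPM in treated libraries. The groups were far apart relative to their spread, with a log2 difference of -0.62 ± 0.123 (edgeR adjusted p = 0.0686). Cbs, which makes cystathionine from homocysteine, had 40.4, 37.1 and 36.7 CPM against 25.9, 28.1 and 28.3 CPM (-0.47 ± 0.0983, edgeR adjusted p = 0.0703). The GABA transporter Slc6a11 (GAT-3) had 182, 162 and 178 CPM against 129, 129 and 125 CPM, a difference of -0.45 ± 0.102 (edgeR adjusted p = 0.0819) that became -0.28 with the GC and length trends removed. Named after their values were seen, the glutamate transporter Slc1a3 had 752, 696 and 726 CPM against 562, 512 and 528 CPM, and the glial transcription factor Sox9 had 81.6, 66.5 and 81.5 CPM against 57.2, 49.7 and 52.3 CPM. Neither gene overlapped between the groups. The potassium channel Kcnj10, on the channel list and abundant in astrocytes, had 265, 233 and 250.1 CPM against 189, 188 and 184 CPM (-0.42, edgeR adjusted p = 0.0845). Other astrocyte genes, also named after seeing their values, overlapped, such as glutamine synthetase Glul (-0.01, 95% interval -0.24 to 0.23), the water channel Aqp4 (-0.15, -0.43 to 0.13) and Gfap, which was at 25.1 to 27.6 CPM in non-stressed and 11.1 to 34.8 CPM in treated libraries.

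Markers of other cell types were mixed, and their counts are read beside the 11.0% of all genes that were lower and 7.31% that were higher at an unadjusted p under 0.05. Counts for microglia, ependyma and choroid plexus were near those shares or below them. Of 12 genes of oligodendrocyte precursors 5 were lower and 1 higher at an unadjusted p under 0.05, with a median of -0.31. The receptor Gpr17 had 17.5, 14.8 and 16.3 CPM against 12.2, 11.8 and 9.34 CPM (-0.55 ± 0.126, and -0.36 with the GC and length trends removed), and Olig1 was 217 to 279 CPM against 177 to 188 CPM (-0.41 ± 0.0966). In that second fit 2 of the 12 were lower and the Olig1 difference was -0.09, so its count moved with the trend. It also gave 3 lower genes without non-stressed library 3 or treated library 3. Of 30 genes of mature oligodendrocytes 1 was higher, Ermn (0.25 ± 0.105, and 0.16 with the trends removed), and the median was 0.02. In endothelium 4 of 24 were lower and 1 higher, among them the tight-junction gene Cldn5 at 45.9 to 59.6 CPM against 34.7 to 40.1 CPM (-0.52 ± 0.115, and -0.28 with the trends removed). Of 25 microglia and macrophage genes 2 were lower and 1 higher, the mannose receptor Mrc1 of perivascular macrophages, which was at 0.172 to 0.219 CPM against 0.557 to 1.199 CPM. Tissue at the ventricle gave 3 higher genes of 32 for ependyma (Pifo 0.75 ± 0.194) and 2 of 21 for choroid plexus. Ttr, the thyroxine carrier made by choroid plexus, had 13.04, 17.8 and 22.9 CPM against 53.3, 35.2 and 42.2 CPM, a log2 difference of 1.29 ± 0.278 (edgeR adjusted p = 0.0776), with stressed saline at 15.6 to 39.8 CPM. Counts in these small sets moved with single libraries. Without treated library 1 ependyma gave 1 higher and 2 lower genes with a median of -0.02 in place of 0.22, without treated library 2 choroid plexus gave 6 higher, and without treated library 3 endothelium gave 2 lower and ependyma 6 higher. Mature oligodendrocytes gave 5 higher genes without non-stressed library 2 and 5 lower without treated library 1, and microglia gave 5 lower without non-stressed library 1 and 0 without non-stressed library 3.

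**Figure D5:**
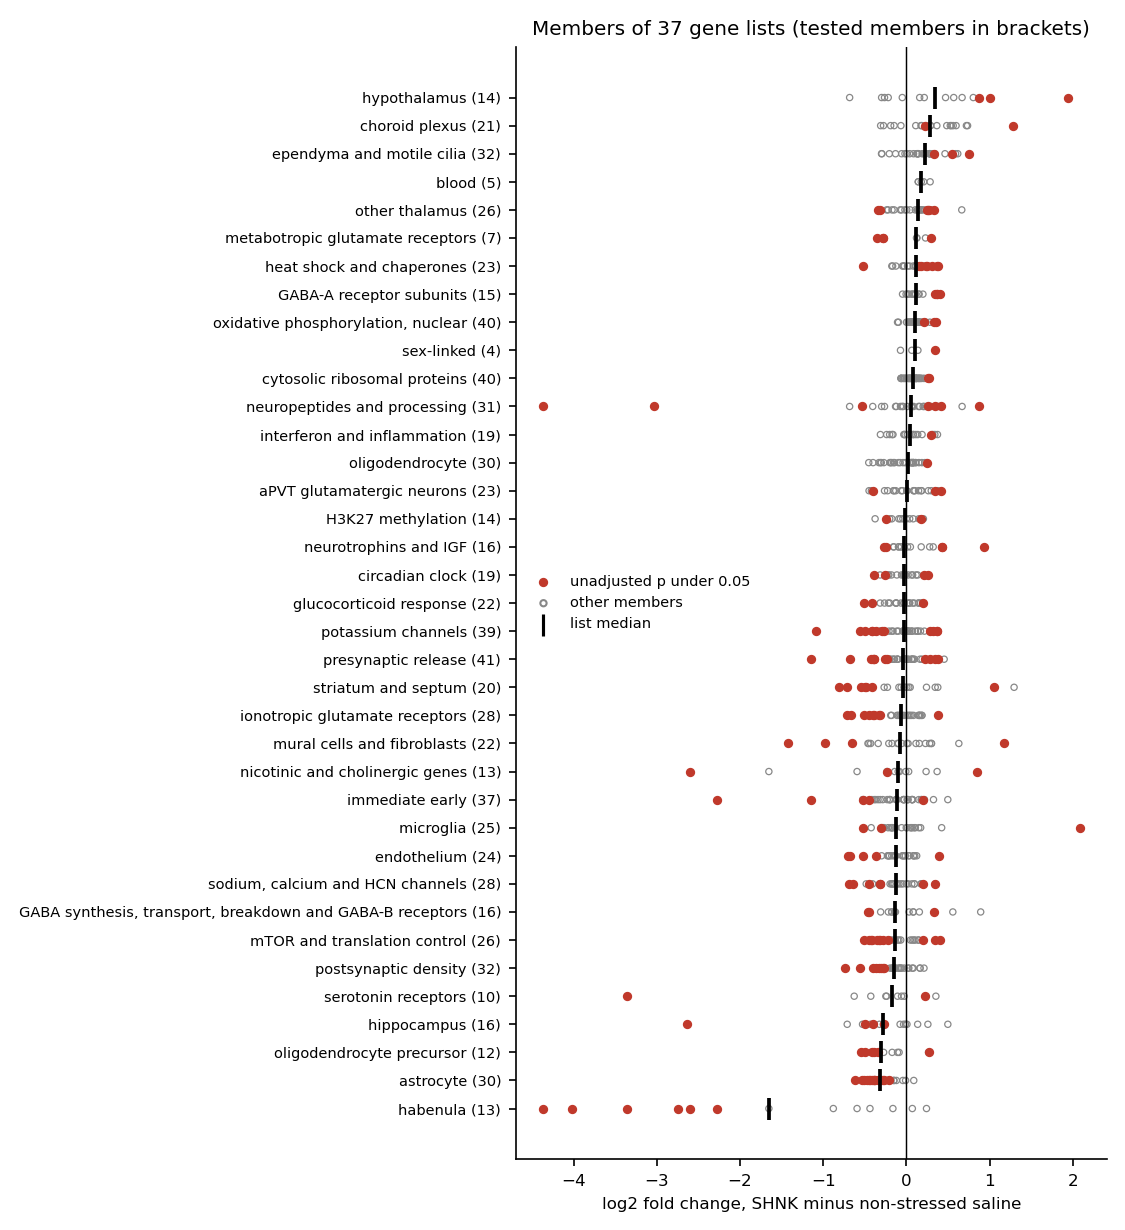
Log2 fold change, treated minus non-stressed (x axis), of each tested member of the 37 lists (y axis, ordered by median), with red points for an unadjusted p under 0.05 and a bar at the list median. The medians of 36 lists lie between -0.32 and 0.34, and that of the habenula list is -1.65.

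Among GABA-A receptor subunits, 15 were tested, 13 had a difference above 0, and 4 were higher at an unadjusted p under 0.05 with 0 lower. By edgeR and limma voom 0 were called, and by DESeq2 4 were higher. Over all tested genes 7.31% were higher at that unadjusted level and 2.68% by DESeq2. The β subunit gene Gabrb2 had 125, 135 and 114 CPM in non-stressed and 156, 165 and 163 CPM in treated libraries, all treated values lying above all non-stressed ones. Its log2 difference was 0.37 ± 0.0828 (edgeR adjusted p = 0.0776), or 0.23 with the GC and length trends removed, and stressed saline libraries were at 97.8 to 110.2 CPM. Gabra4, whose α4 subunit forms tonic, extrasynaptic receptors with the δ subunit in thalamus, had 290.3, 271 and 242 CPM against 310.3, 349 and 401 CPM (0.40 ± 0.106, edgeR adjusted p = 0.0921). Its stressed saline values were 248, 225 and 205 CPM, which overlap the non-stressed range. The δ subunit gene Gabrd had 135, 123 and 136 CPM against 144, 156 and 153 CPM, a difference of 0.20 (95% interval -0.03 to 0.43) that became 0.40 with the trends removed. Gabra5 had overlapping groups at 0.07 (-0.17 to 0.31). The list median was 0.11, and with GC and length trends removed it was 0.06, with 5 subunits higher. Transcripts of these subunits have a median GC content of 44.2%, in a class where the median difference over all genes was 0.11. Without single libraries the number of higher subunits was 3 to 5, the 3 being without treated library 3, when the median was 0.04.

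The GABA-synthesising enzymes were uncertain. Gad1 had 4.89, 7.45 and 3.90 CPM against 19.4, 6.56 and 3.91 CPM, and Gad2 had 20.3, 19.6 and 12.9 CPM against 41.1, 18.1 and 18.5 CPM. In both genes the first treated library alone stood above the non-stressed range, and the intervals ran from -0.40 to 2.19 for Gad1 and from -0.05 to 1.17 for Gad2.

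Of 28 genes of ionotropic glutamate receptors and their auxiliary subunits, 8 were lower and 1 higher at an unadjusted p under 0.05, and DESeq2 called 5 lower and 1 higher. Over all tested genes 11.0% were lower and 7.31% higher at that unadjusted level, and DESeq2 called 5.23% lower and 2.68% higher. Both high-affinity kainate receptor subunits were among the lower ones. Grik4 had 15.4, 15.4 and 16.5 CPM in non-stressed, 14.1, 15.5 and 14.3 CPM in stressed saline and 10.8, 9.45 and 8.69 CPM in treated libraries, a difference of -0.71 ± 0.115 from the non-stressed group (edgeR adjusted p = 0.0686). Grik5 had 41.8, 47.8 and 53.6 CPM against 34.2, 30.7 and 25.7 CPM (-0.66 ± 0.118, edgeR adjusted p = 0.0686). Neither gene overlapped between the groups. After removal of the GC and length trends Grik4 was at -0.52 and Grik5 at -0.41, and the list gave 4 lower and 4 higher genes. The list also gave 4 lower genes without non-stressed library 3 and 5 without treated library 3. The scaffold genes of the postsynaptic density gave 8 lower of 32, beside 11.0% of all genes, led by Dlgap3 (-0.74 ± 0.178), with 5 lower without non-stressed library 3. There were 3 lower and 1 higher after removal of the trends, when Dlgap3 was at -0.32.

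The activity and stress-hormone genes showed few differences. Of 37 immediate early genes, transcripts induced within minutes of neuronal firing, 4 were lower and 1 higher at an unadjusted p under 0.05, and 10 were lower without treated library 1. The lower genes were 10.8% of that list, near the 11.0% of all genes. Fos had 75.1, 54.1 and 30.4 CPM against 63.7, 38.5 and 28.8 CPM, an overlap that left an interval of -0.93 to 0.37. Arc, a regulator of AMPA receptor traffic, had 14.4, 10.4 and 12.6 CPM against 9.67, 9.15 and 8.66 CPM (-0.45 ± 0.133, edgeR adjusted p = 0.113), with -0.13 after removal of the GC and length trends. Npas4 was at 1.40 to 2.83 CPM against 0.557 to 1.16 CPM. Of 22 glucocorticoid-responsive genes 2 were lower and 1 higher (4 lower without non-stressed library 1, 0 without non-stressed library 2), and 9.09% lower is again near the share of all genes. The interval of the co-chaperone gene Fkbp5 was -0.45 to 0.20, that of the kinase gene Sgk1 -0.09 to 0.28 and that of the receptor gene Nr3c1 -0.01 to 0.30. The H3K27 methyltransferase gene Ezh2 was at 2.47 to 3.13 CPM against 2.69 to 2.77 CPM (interval -0.43 to 0.44), and the demethylase gene Kdm6b at 3.93 to 4.93 CPM against 3.10 to 4.37 CPM (-0.59 to 0.19, its difference of -0.20 becoming 0.07 with the trends removed). Bdnf, the neurotrophin often measured after ketamine, had 35.2, 39.4 and 36.7 CPM against 38.2, 39.2 and 48.6 CPM (0.18, -0.05 to 0.41).

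Of 23 chaperone genes, which help proteins fold, 7 were higher at an unadjusted p under 0.05, beside 7.31% of all genes, and 1 was lower. DESeq2 called 3 of them higher, beside 2.68% of all genes, and edgeR 0. Dnaja1, an HSP70 co-chaperone, had 432, 436 and 415 CPM against 516, 551 and 602 CPM (0.38 ± 0.0761, edgeR adjusted p = 0.0686). Hsp90aa1 had 1144, 1276 and 1104 CPM against 1439.7, 1499.6 and 1608 CPM (0.37 ± 0.0816, edgeR adjusted p = 0.0776). In both genes every treated library was above every saline library of either group. After removal of the GC and length trends Dnaja1 was at 0.19, Hsp90aa1 at 0.23 and 6 members were higher, while leaving out non-stressed library 3 gave 3 and treated library 3 gave 4. Of 26 genes of mTOR signalling and translation control 9 were lower and 3 higher, beside 11.0% and 7.31% of all genes. The mTOR activator Rheb had 303, 338 and 304 CPM against 375, 405 and 476 CPM (0.41 ± 0.0914, edgeR adjusted p = 0.0776), elongation factor Eef2 had 542, 594 and 601 CPM against 434, 478 and 358 CPM (-0.45 ± 0.107, and -0.30 with the trends removed), and its kinase Eef2k was at -0.29 (-0.54 to -0.03). Mtor itself overlapped (-0.07, -0.29 to 0.16). With the trends removed 1 gene of that list was lower and 3 higher, and without treated library 3 or non-stressed library 3 it gave 2 and 3 lower.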

How the data were processed

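Per the labels' protocols, RNA from a Direct-zol kit was turned into libraries by SMARTer Ultra low amplification followed by TruSeq preparation. The authors deposited whole-number read counts per gene symbol, without normalization. Trimmomatic 0.38, HISAT2, StringTie and GRCm38/mm10 are named in the submitters' processing notes. What each did, the other versions and whether strand was used are not given in the sources used, so overlapping and antisense genes could not be separated. The lowest count was 1 and 0 symbols had a zero.

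Counts were filtered with filterByExpr (minimum count 10, minimum total 15), which left out 762 genes, scaled by TMM and fitted in 1 edgeR 4.0.16 quasi-likelihood model over the 3 groups (R 4.3.3). Adjustment was by Benjamini-Hochberg over 18194 genes, with a threshold of 0.05. The standard error is the log2 fold change divided by the root of F, and log2 CPM used a prior count of 2. DESeq2 1.42.0 and limma 3.58.1 voom were alternatives. A DESeq2 value withheld by its own filter stayed missing. Coordinates came from RefSeq (18333 symbols matched, 96.7%), and GC content and length from GENCODE transcripts (16724 genes, 91.9%). The GC and length fit was added after the data were seen.

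The libraries compared, the 37 lists and the 23 genes were chosen with earlier results of these data known. Named genes were the called genes with a mean log2 CPM not under 1 and with groups that do not overlap, the 23 genes, and in each list without a call the 2 members of smallest p. Some genes that this rule names are not reported here. Any other gene is marked as named after its values were seen. These steps were tested on simulated counts with 200 changed genes (2 runs; 6.21% false calls at 1.5-fold and 5.63% at 2-fold).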

Additional observations from a re-analysis of the deposited data

How the results depend on the processing

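The edgeR fit called 0 genes higher and 1 lower in treated tissue, with 0 higher and 0 lower list members. DESeq2 called 340 higher (2.68% of 12706 genes) and 664 lower (5.23%), with 25 and 53 list members. An adjusted p of 0.1 in edgeR gave 135 and 385 of the 18194 tested genes, with 14 and 38 of the 786 tested list members. The 6 libraries of both groups alone gave 2 (Ttr, LOC115489467) and 7 (Chrna3, Gm5741, Mmp14, Nppa, Nr4a2, Nwd2, Tac2), with 1 and 5 list members. Upper-quartile scaling, no filter, a filter of 1 CPM, the 2-fold threshold and removal of GC and length trends each left 0 lower genes (Mmp14 adjusted p = 0.0573, 0.0635 and 0.0510 for the first 3). The results were those of the reported fit with limma voom and with DESeq2 size factors. Leaving out 1 library gave 0 to 153 higher and 0 to 596 lower genes, and 0 to 12 higher and 0 to 36 lower list members. The labels do not say whether the replicate numbers shared by the groups pair the libraries. Deviations of same-numbered non-stressed and treated libraries correlated at 0.0515, 0.0569 and -0.0670. With 3 libraries a group these values cannot settle whether libraries were paired. The replicate block gave 2 higher (Lars2, Pcp4) and 4 lower genes (Gm5741, Mmp14, Tac2, Tril), with 0 higher and 1 lower list member. Of 92 named genes 80 kept their sign under every alternative, which does not mean that they kept their size. With GC and length trends removed, lower genes at an unadjusted p under 0.05 in edgeR went from 2008 to 1101. The higher ones went from 1330 to 1233. Over genes whose mean log2 CPM was 1 or more, the between-group mean distance exceeded the within-group mean by 0.0515. Its one-sided p was 0.1 (exact permutation test), the smallest that the 10 splits allow. The cause of each shift was not tested. With 3 libraries a group, the spread between libraries limits what can be called, and genes silent in any library are outside the comparison.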

Other observations

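The genes in these paragraphs were named after their values were seen, and no explanation was tested. None passed an adjusted p of 0.05 in the edgeR fit over the 3 groups, while Lars2, Pcp4 and Tril passed with the replicate block (edgeR adjusted p = 0.0421, 0.0348 and 0.0348). Lars2, the mitochondrial leucyl-tRNA synthetase, had 218, 259.5 and 239 CPM in non-stressed, 213, 209 and 267 CPM in stressed saline and 356, 348 and 482 CPM in treated libraries. All treated values lay above those of both saline groups, with a log2 difference of 0.73 ± 0.129 from the non-stressed group (edgeR adjusted p = 0.0686) and 0.72 after removal of GC and length trends. Pcp4, a calmodulin-binding peptide of thalamic and Purkinje neurons, had 489.7, 593 and 593 CPM against 706, 871 and 987 CPM (0.61 ± 0.140, edgeR adjusted p = 0.0815).

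Several genes were lower in treated libraries without overlap. Tril, a membrane protein that assists Toll-like receptor signalling and is abundant in glia, had 74.2, 59.6 and 68.2 CPM against 45.5, 42.7 and 36.5 CPM (-0.70 ± 0.113, edgeR adjusted p = 0.0686). Ptch1, the hedgehog receptor, had 55.9, 57.3 and 58.1 CPM against 41.8, 41.0 and 37.4 CPM (-0.51 ± 0.0899, edgeR adjusted p = 0.0686), and its difference was -0.54 after removal of GC and length trends. Cers1, the neuronal ceramide synthase, had 102, 85.4 and 125 CPM against 35.2, 78.3 and 30.2 CPM (-1.12 ± 0.262, edgeR adjusted p = 0.0835), the second treated library being close to the lowest non-stressed one.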
